A study of Mus musculus with 18 samples.

Results

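The genes described here make, take up, move, store and export cholesterol in the mouse adrenal gland, and they were measured on Illumina bead arrays. The set is a list of 33 genes of sterol synthesis, SREBP control, lipoprotein uptake, sterol trafficking and efflux. They were chosen by their known roles, but with earlier results of these data known. Of these, 28 had at least 1 named probe on the array, and 27 were detected on enough arrays to be tested, among 10375 genes tested in all. No probe was named for Acat2, which makes acetoacetyl-CoA, for Hmgcs1, which makes HMG-CoA, for Fdft1, which makes squalene, for Soat1, which esterifies cholesterol, or for Nr1h2, a sterol-sensing nuclear receptor, so these 5 genes were not analysed here. The single probe of Abca1, an exporter of cholesterol, was detected on 0 of the 18 arrays, and Abca1 was not tested. The 28 genes had 54 named probes, of which 41 were kept.

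Total RNA came from adrenal glands of C57BL/6N mice aged 2 months, and 18 arrays form 6 groups of n = 3. The groups are males, females and castrated males, each either wild type (WT) or with the Ephb6 gene knocked out (KO). Ephb6 is a cell-surface Eph receptor, and ephrins of adjacent cells are its ligands. The age at castration, the time since the operation and the form of the Ephb6 allele are not given in the sources used here. Samples carry replicate numbers in the labels, which do not say whether each came from its own animal, so each p-value reflects variation between samples that may be partly technical.

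Animal cells build cholesterol from acetyl-CoA by way of mevalonate, farnesyl diphosphate, squalene and lanosterol. Transcription of the enzymes is driven by SREBP-2, which the carrier protein Scap takes from the endoplasmic reticulum to the Golgi when sterol is scarce, and which the Insig proteins hold back when sterol is plentiful. When sterol is in excess, the LXR receptors switch on exporters of cholesterol. The adrenal cortex uses cholesterol as the raw material of every steroid hormone, keeps a store of it as esters in lipid droplets, and in mice takes up much of it from HDL through the receptor Scarb1.

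Castrated knockout array 1 was dimmer than the rest, at a mean signal of 244 with 27.8% of probes detected, where the remaining arrays had 446 or more and at least 34.6%. It and knockout female array 1 had the lowest weights in a fit with array weights (0.162 and 0.277). Results are therefore also given without these 2 arrays. Ephb6, the targeted gene, averaged 1.14 lower on the log2 scale in knockout than in wild type over the 3 conditions (-1.14, SE 0.15, limma adjusted p = 0.00481). The Ephb6 values of wild-type and knockout males overlapped, and those of females and of castrated males did not. All 7 tested markers of the steroid-producing cortex, such as Cyp11a1 and Star, and all 6 of the catecholamine-producing medulla, such as Th and Pnmt, were detected on every array.

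The RefSeq promoter windows of the genes were searched for short motifs because sterol-regulated genes are known to carry sites of SREBP and of its partner NF-Y near their start. Each window runs from 250 bases before to 50 bases after a transcription start in GRCm38.p6, and 21 of the 27 tested genes had at least 1 window (32 windows). The 4 windows below belong to genes whose differences between the groups are described in the following paragraphs. Hsd17b7 and Cyp51 lie at chr1:169969156-169969455 and chr5:4104648-4104947, both on the minus strand, Mvd at chr8:122443373-122443672 on the minus strand, and Insig1 at chr5:28071162-28071461 on the plus strand. Capitals mark the NF-Y box, CCAAT or its reverse complement ATTGG, and each sequence is written 5′ to 3′ on the strand of its gene.
Hsd17b7: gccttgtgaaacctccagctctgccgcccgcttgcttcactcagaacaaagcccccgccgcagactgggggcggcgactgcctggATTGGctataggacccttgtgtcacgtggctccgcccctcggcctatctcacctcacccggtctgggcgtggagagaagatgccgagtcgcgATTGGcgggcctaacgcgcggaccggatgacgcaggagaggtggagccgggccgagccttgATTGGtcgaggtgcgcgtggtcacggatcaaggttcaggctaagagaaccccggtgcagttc
Cyp51: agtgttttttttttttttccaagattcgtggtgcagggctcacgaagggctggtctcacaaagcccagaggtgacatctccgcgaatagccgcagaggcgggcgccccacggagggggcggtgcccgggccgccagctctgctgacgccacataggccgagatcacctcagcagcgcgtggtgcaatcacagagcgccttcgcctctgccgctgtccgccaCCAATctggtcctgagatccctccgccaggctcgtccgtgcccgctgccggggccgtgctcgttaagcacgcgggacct
Mvd: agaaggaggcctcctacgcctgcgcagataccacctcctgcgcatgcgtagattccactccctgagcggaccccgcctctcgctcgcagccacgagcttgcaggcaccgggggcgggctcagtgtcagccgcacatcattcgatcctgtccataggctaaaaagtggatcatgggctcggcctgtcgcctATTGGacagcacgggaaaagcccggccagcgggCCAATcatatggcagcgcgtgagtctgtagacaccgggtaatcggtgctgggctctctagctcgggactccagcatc
Insig1: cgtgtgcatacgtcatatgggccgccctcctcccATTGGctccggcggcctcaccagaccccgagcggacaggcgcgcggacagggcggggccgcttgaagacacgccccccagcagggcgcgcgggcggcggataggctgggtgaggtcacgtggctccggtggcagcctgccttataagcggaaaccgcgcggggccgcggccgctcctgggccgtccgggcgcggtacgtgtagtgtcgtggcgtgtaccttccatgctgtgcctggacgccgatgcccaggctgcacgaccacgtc

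Hsd17b7 carried 3 NF-Y boxes, at positions -165, -73 and -12 from the start site, all on the opposite strand. Mvd carried boxes at -60 and -27, Cyp51 at -29 and Insig1 at -216. Across the tested genes with a window, 18 of 21 (85.7%) held an NF-Y box on either strand, against 41.1% of all 27025 genes with a window, and 59.4% of their 32 windows did, against 37.4% of all 32851 windows. The GC box GGGCGG, to which Sp1 binds, was in the windows of 18 of 21 genes (85.7%), against 38.2% of all genes. The E-box CACGTG was in those of 5 (23.8%), against 8.09%. By windows the GC box was in 68.8%, against 35.7% of all windows, and the E-box in 18.8%, against 7.15%. The sterol regulatory element in the form TCACNCCAC was found in 0 of the 21, against 1.44% of all genes, and in the window of Hmgcs1, which had no named probe. Both strands were searched, and letters that 2 motifs share were counted for both. The 21 genes were detected in these adrenals, while the shares of all genes include genes that were not detected or had no probe. A match in these letters is no evidence of binding, and no test was made of these shares.

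**Figure D1:**
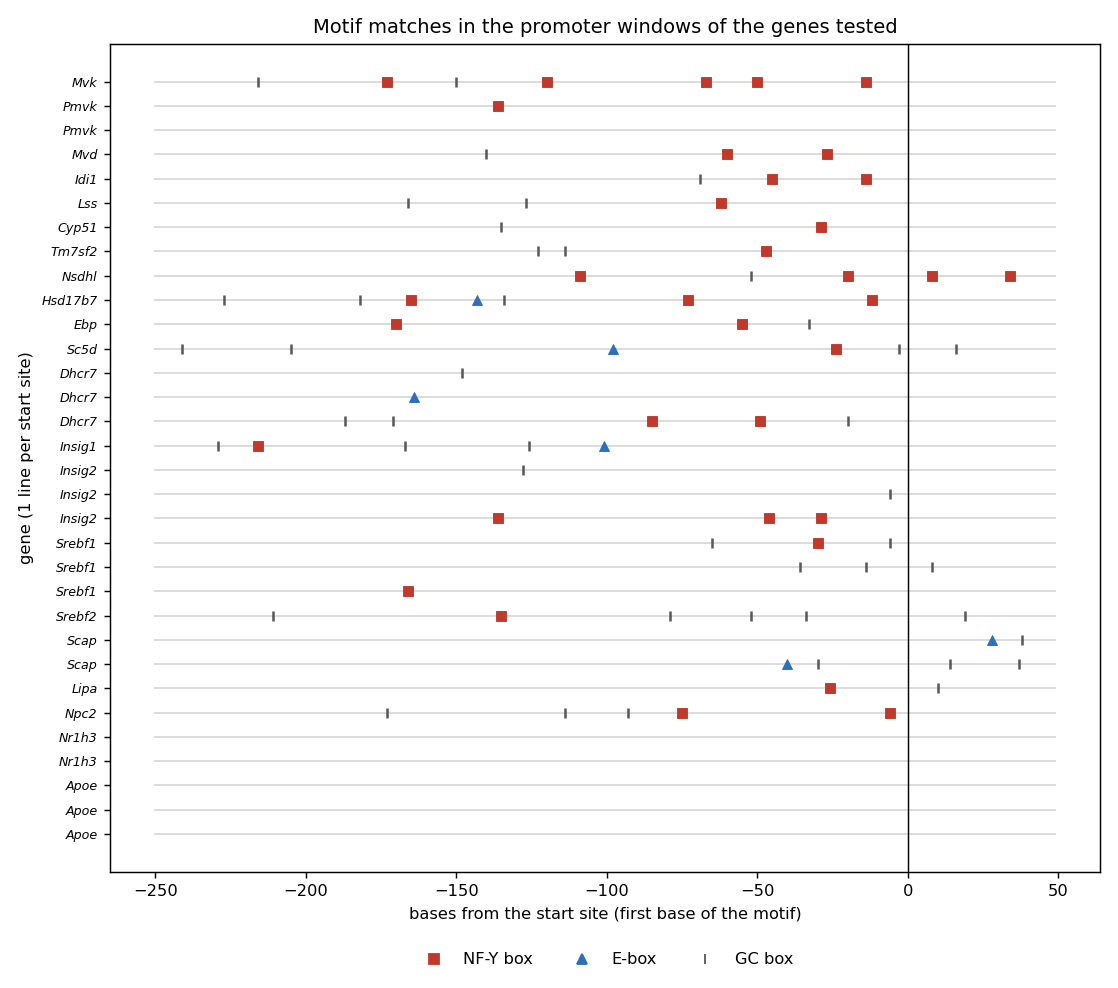
Positions of motif matches in the 32 promoter windows of the 21 tested genes that had one. The horizontal axis gives the first base of each match in bases from the start site, each line is 1 window, red squares are NF-Y boxes, blue triangles E-boxes and grey ticks GC boxes. Most lines of the synthesis enzymes hold a red square, and the windows of Nr1h3 and Apoe hold none of the 3 motifs.

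Several synthesis enzymes, led by Hsd17b7 and Fdps, were higher in the adrenals of females and of castrated males than in those of males. Nr1h3 was lower in both. Abcg1 was lower in both when averaged over genotypes, but within a genotype it passed only between castrated and uncastrated knockout males. Averaged over both genotypes, 13 of the 27 genes passed between females and males, 9 higher and 4 lower in females, at a limma adjusted p under 0.05 over all 10375 genes. The same rule called 10.7% of all genes higher and 11.1% lower in females. Between castrated and uncastrated males 16 of 27 passed, 14 higher and 2 lower after castration, against 11.9% of all genes higher and 15.8% lower. The share of the set that was higher lay above that of all genes in both comparisons, while the share that was lower was above it in one and below it in the other. Both comparisons use the same 6 male arrays, so they are not independent of each other. When castrated males were set against females, 2 of 27 passed, 1 in each direction, against 1.76% higher and 2.63% lower among all genes.

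By role, 7 of the 14 enzymes tested were higher in females and 0 lower, with a median log2 difference over the 14 of 0.58. After castration 10 of 14 were higher and 0 lower, with a median of 0.67. The median over all genes tested was -0.03 and -0.02 in these comparisons. Idi1 is among the 10, and its probe was kept only through its detections on castrated arrays. When only probes detected on all 18 arrays were used, 22 genes of the set were tested, without Idi1. Of these, 13 passed after castration, 12 higher and 1 lower, with an enzyme median of 0.78. Over all genes 2397 were then called. Between castrated males and females 0 of the 14 passed in the limma test (3 at an unadjusted p under 0.05), with a median of 0.20. Without background correction the enzyme medians were 0.33 for females and 0.40 for castrated males, and the counts of genes that passed were again 13 and 16. With median scaling in place of quantile normalization 10 genes passed between females and males, 9 higher and 1 lower, and 18 between castrated and uncastrated males. Without the 2 arrays that stood apart the counts were 14 for females, 15 for castrated males and 3 for castrated males against females. Over all genes the calls in these comparisons rose from 2265, 2873 and 456 to 2920, 3442 and 659. The count of the set for castrated males against females was 3 without wild-type male array 1 or 2 or castrated knockout array 2. It was 2 without knockout male array 1, knockout female array 1 or castrated knockout array 3. Leaving out any one of the remaining arrays gave 1.

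**Figure D2:**
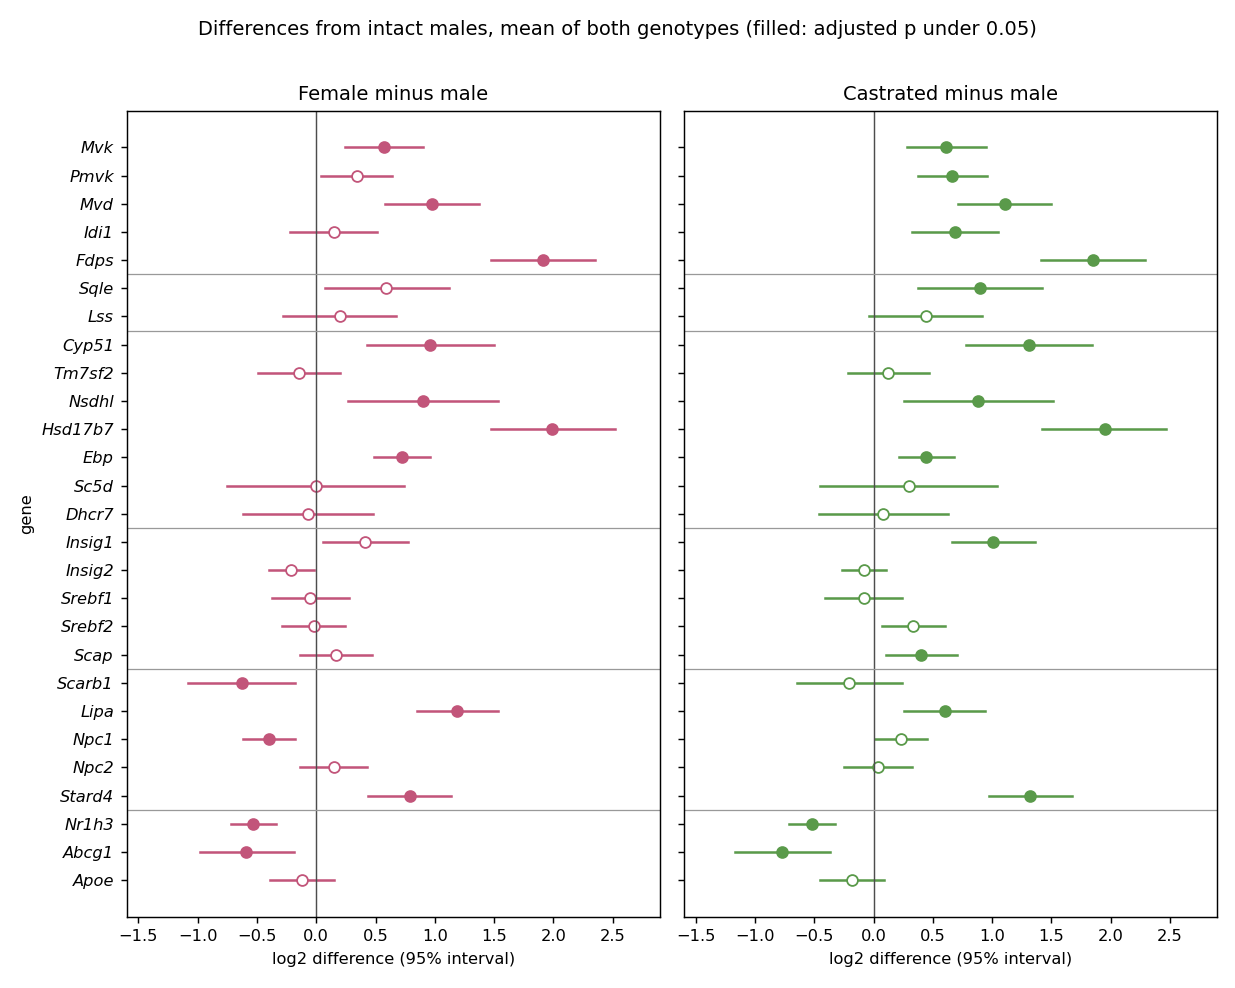
Log2 differences of females (left) and castrated males (right) from males, averaged over both genotypes, for the 27 genes in the order of their roles. Points are the estimates of the fit, lines their 95% intervals, and filled points passed at an adjusted p under 0.05. Fdps and Hsd17b7 lie farthest to the right in both panels, and Nr1h3 and Abcg1 lie left of 0 in both.

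Of the enzymes from mevalonate to farnesyl diphosphate, Fdps moved most. Fdps makes farnesyl diphosphate, the branch point to sterols, dolichol and prenylated proteins. All values of single arrays are log2 intensities in the order of the replicate numbers 1, 2 and 3. Fdps measured 11.68, 11.04 and 11.32 on the wild-type and 12.28, 10.74 and 11.51 on the knockout male arrays. Female Fdps values were 13.38, 13.66 and 12.91 in wild type and 13.79, 13.36 and 12.94 in knockout. Castrated males gave Fdps values of 13.87, 13.3 and 13.64 in wild type and 12.69, 13.08 and 13.08 in knockout. Every female and castrated array lay above every male array, and the highest male value was that of knockout array 1. Fdps was 3.76-fold higher in females (log2 difference 1.91, SE 0.21, limma adjusted p = 2.42e-06) and 3.6-fold higher in castrated males (1.85, SE 0.21, adjusted p = 4.36e-06). Its second probe gave 1.71 and 1.45, and both passed.

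Mvd, Mvk and Pmvk carry out the steps between mevalonate and isopentenyl diphosphate. Mvd removes a carboxyl group from mevalonate diphosphate. Mvd measured 7.14, 7.12 and 7.36 on the wild-type and 8.21, 7.47 and 7.24 on the knockout male arrays. Female Mvd values were 8.56, 8.17 and 8.44 in wild type and 9.03, 8.17 and 8.03 in knockout. Castrated males gave Mvd values of 9.0, 8.59 and 8.57 in wild type and 7.98, 8.38 and 8.66 in knockout. The male arrays lay below all others except knockout male array 1, which reached the lower female and castrated values. Mvd was 1.97-fold higher in females (log2 difference 0.98, SE 0.19, limma adjusted p = 0.000906) and 2.15-fold higher in castrated males (1.11, SE 0.19, adjusted p = 0.00028). Mvk phosphorylates mevalonate. Mvk measured 5.8, 5.36 and 5.97 on the wild-type and 6.01, 5.94 and 6.1 on the knockout male arrays. Female Mvk values were 6.33, 6.47 and 6.36 in wild type and 6.98, 6.24 and 6.22 in knockout. Castrated males gave Mvk values of 6.4, 6.32 and 6.33 in wild type and 6.88, 6.39 and 6.55 in knockout. The male arrays did not overlap with the female or the castrated arrays, although the gap was small. Mvk differed by 0.57 (SE 0.16, limma adjusted p = 0.0141) in females and by 0.61 (SE 0.16, limma adjusted p = 0.00709) in castrated males. Without background correction these differences were 0.21 and 0.23.

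Pmvk adds the second phosphate to mevalonate. Pmvk measured 6.95, 7.27 and 7.08 on the wild-type and 7.36, 7.08 and 7.08 on the knockout male arrays. Female Pmvk values were 7.02, 7.96 and 7.64 in wild type and 7.55, 7.25 and 7.43 in knockout. Castrated males gave Pmvk values of 8.22, 8.02 and 8.09 in wild type and 7.5, 7.56 and 7.39 in knockout. Castrated males of both genotypes lay above all male arrays, wild-type castrated males highest, and the female arrays overlapped both conditions. Pmvk rose 1.58-fold in castrated males (0.66, SE 0.14, limma adjusted p = 0.00188). In females its difference was 0.34 (SE 0.14, limma adjusted p = 0.097), which did not pass. Idi1 turns isopentenyl diphosphate into its isomer dimethylallyl diphosphate. Idi1 measured 5.18, 4.79 and 5.13 on the wild-type and 5.3, 5.14 and 5.36 on the knockout male arrays. Female Idi1 values were 5.6, 5.43 and 4.78 in wild type and 5.51, 5.45 and 5.0 in knockout. Castrated males gave Idi1 values of 5.83, 6.03 and 5.83 in wild type and 6.14, 5.61 and 5.57 in knockout. The Idi1 probe was detected on 6 of the 18 arrays, among them all 3 of wild-type castrated males and 0 of the wild-type males. In wild type it was at least 1.31-fold higher in castrated than in uncastrated males (limma adjusted p = 0.0303), and this call was lost when either wild-type male array 2 or 3 or any of the 3 castrated wild-type arrays was left out. The signal of Idi1 was detected on 1 of the 6 male, 1 of the 6 female and 4 of the 6 castrated arrays. Its probe met the rule of 3 detected arrays only through the castrated arrays, where it was high. Its castration calls, in wild type and averaged over genotypes, therefore rest on the arrays that admitted it and are no independent result. Averaged over genotypes Idi1 passed after castration (limma adjusted p = 0.00645) and is counted with the genes that were higher. Its fitted difference was 0.69 (SE 0.17), and 0.20 without background correction. That difference sets the castrated arrays against mostly undetected signals and is no exact size. In females Idi1 did not pass (0.15, SE 0.17, limma adjusted p = 0.61).

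Of the 2 tested enzymes that turn squalene into lanosterol, 0 passed in females by limma (1 at an unadjusted p under 0.05) and 1 in castrated males. Sqle, squalene epoxidase, puts the first oxygen on the sterol skeleton. Sqle measured 10.06, 8.88 and 9.47 on the wild-type and 10.68, 9.46 and 9.29 on the knockout male arrays. Female Sqle values were 10.48, 10.58 and 10.07 in wild type and 10.76, 10.03 and 9.49 in knockout. Castrated males gave Sqle values of 11.2, 10.59 and 11.07 in wild type and 9.72, 10.31 and 10.33 in knockout. Wild-type females and wild-type castrated males lay above the wild-type males, while the knockout arrays of the 3 conditions overlapped. Sqle was 1.86-fold higher in castrated males (0.90, SE 0.25, limma adjusted p = 0.0122), and its second probe gave 1.15 and passed. In females the difference of 0.59 (SE 0.25, limma adjusted p = 0.104) did not pass. Lss closes the ring system to lanosterol and did not pass in either comparison, at 0.20 (SE 0.23) in females and 0.44 (SE 0.23) in castrated males. Its values ran from 7.39 to 8.99 in males, so that the spread within males was wider than either difference.

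Among the enzymes from lanosterol to cholesterol, Hsd17b7 differed most in both comparisons. Hsd17b7 reduces the ketone at the sterol ring during removal of the methyl groups, and the enzyme also turns estrone into estradiol. Hsd17b7 measured 9.15, 8.43 and 8.64 on the wild-type and 10.15, 8.33 and 8.5 on the knockout male arrays. Female Hsd17b7 values were 11.19, 11.37 and 10.41 in wild type and 11.07, 10.72 and 10.41 in knockout. Castrated males gave Hsd17b7 values of 11.22, 10.76 and 11.28 in wild type and 10.54, 10.46 and 10.63 in knockout. Every female and castrated array lay above every male array, and knockout male array 1 again had the highest male value. Hsd17b7 was 3.98-fold higher in females (log2 difference 1.99, SE 0.25, limma adjusted p = 1.15e-05) and 3.86-fold higher in castrated males (1.95, SE 0.25, adjusted p = 1.67e-05). Its order against Fdps depended on the processing: without background correction Fdps gave 1.87 and 1.81 where Hsd17b7 gave 1.74 and 1.69, and Fdps was also the larger under median scaling (2.03 and 2.04 against 2.01 and 2.02) and in the authors' values (1.80 and 1.73 against 1.66 and 1.62).

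Cyp51 is the demethylase that starts the conversion of lanosterol. Cyp51 measured 8.77, 7.68 and 8.14 on the wild-type and 9.39, 8.12 and 8.07 on the knockout male arrays. Female Cyp51 values were 9.68, 9.86 and 8.99 in wild type and 9.65, 9.01 and 8.79 in knockout. Castrated males gave Cyp51 values of 10.35, 9.81 and 10.19 in wild type and 8.67, 9.37 and 9.66 in knockout. Wild-type male arrays lay below all female arrays and below the wild-type castrated arrays, and knockout male array 1 lay among the female values. Cyp51 was 1.95-fold higher in females (0.96, SE 0.25, limma adjusted p = 0.00982) and 2.48-fold higher in castrated males (1.31, SE 0.25, adjusted p = 0.000842). Ebp moves the double bond of the ring. Ebp measured 9.72, 9.56 and 9.82 on the wild-type and 9.57, 9.5 and 9.67 on the knockout male arrays. Female Ebp values were 10.32, 10.47 and 10.27 in wild type and 10.77, 10.33 and 10.01 in knockout. Castrated males gave Ebp values of 10.45, 10.19 and 9.97 in wild type and 9.98, 9.93 and 9.98 in knockout. Males lay lowest with no overlap, and females lay highest on average. Ebp was 1.65-fold higher in females (0.72, SE 0.11, limma adjusted p = 0.000118) and 1.36-fold higher in castrated males (0.44, SE 0.11, limma adjusted p = 0.00667).

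Nsdhl, a sterol dehydrogenase that acts in removing methyl groups from the ring, passed in both comparisons and its 4 probes all pointed the same way. The probe tested ran from 6.01 to 6.74 in males, from 6.65 to 7.97 in females and from 7.20 to 8.30 on 5 of the 6 castrated arrays, and castrated knockout array 1 was at 5.31. Nsdhl differed by 0.90 (SE 0.30, limma adjusted p = 0.0384) in females and 0.88 (SE 0.30, adjusted p = 0.0343) in castrated males, and without castrated knockout array 1 and knockout female array 1 by 0.70 and 1.22. The female call was lost in 11 of 27 alternatives and the castrated call in 9 of 27. Both were lost without wild-type or knockout male array 2 or 3. The female call was also lost when any one wild-type female array or knockout female array 1 was left out, and the castrated call without castrated wild-type array 1 or 2 or castrated knockout array 2 or 3. The remaining 3 enzymes did not pass. Tm7sf2, a sterol reductase, differed by -0.15 (SE 0.16) in females and 0.12 (SE 0.16) in castrated males. Sc5d, a sterol desaturase, differed by 0.00 (SE 0.35) and 0.30 (SE 0.35), with a 95% interval of -0.45 to 1.04 for the latter. Dhcr7, which completes cholesterol from its last precursor, differed by -0.07 (SE 0.26) and 0.08 (SE 0.26), with intervals of -0.62 to 0.48 and -0.46 to 0.63.

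**Figure D3:**
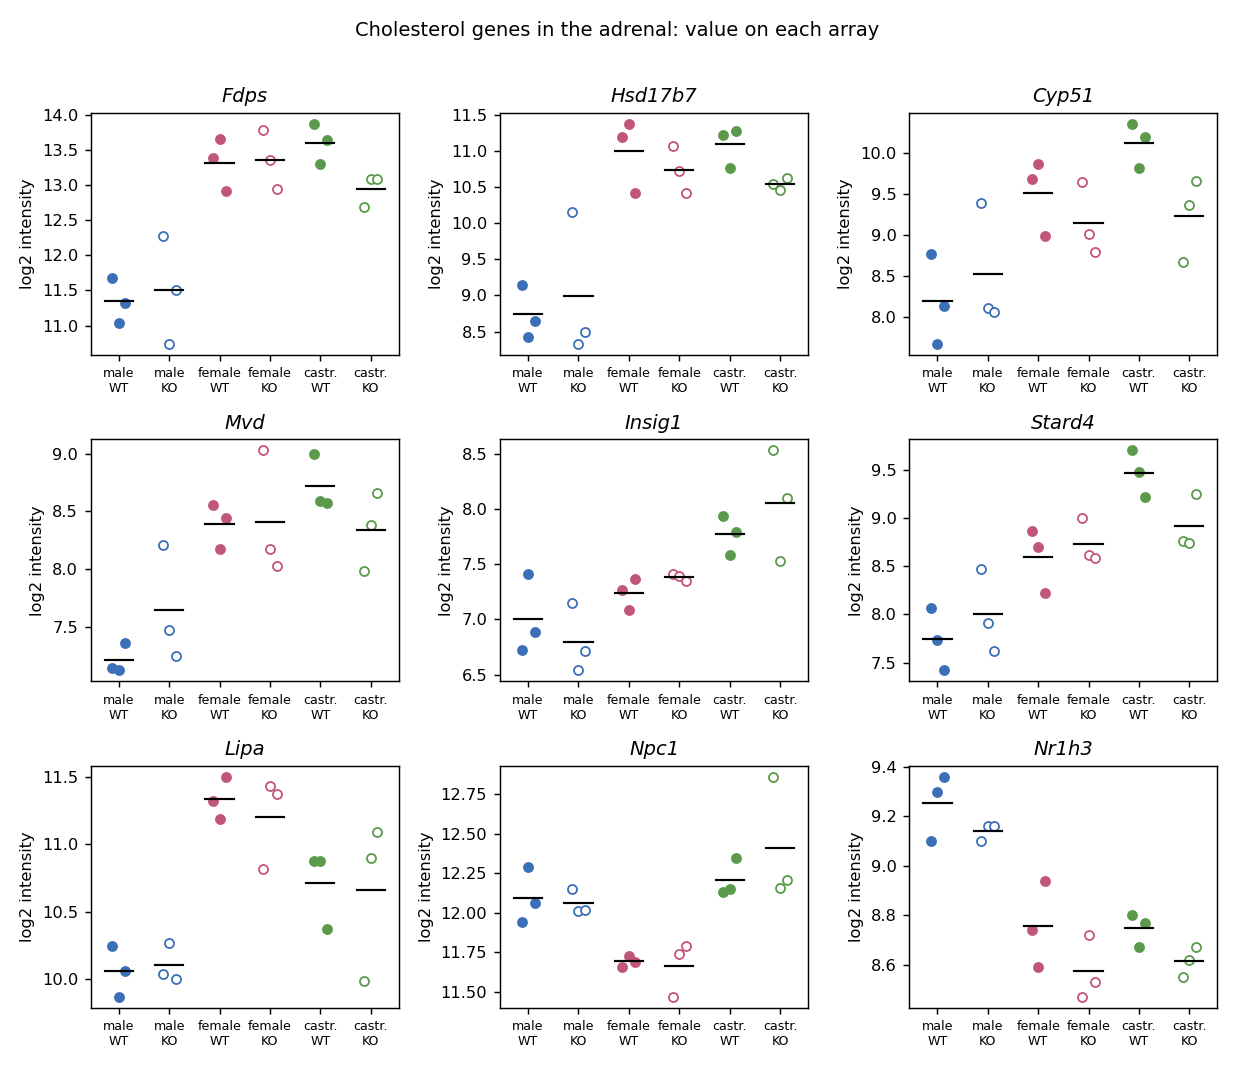
Log2 intensity of 9 genes on each of the 18 arrays, by group. Filled circles are wild-type and open circles knockout arrays, black bars are group means, and each panel has its own vertical axis that does not start at 0. Fdps and Hsd17b7 were higher in females and castrated males with no overlap with males, Lipa was highest in females, Npc1 was lowest in females and Nr1h3 was highest in males.

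The enzymes tended to be high or low together on the arrays of a group. Of the 14 enzymes, 10 were highest of their 3 arrays on wild-type male array 1, and 12 were lowest on wild-type male array 2. Knockout male array 1 was highest for 10, knockout female array 1 for 13 and wild-type castrated array 1 for 11, while knockout female array 3 was lowest for 13. The mean of the 14 log2 values ran from 7.51 to 8.48 on the male arrays, from 8.19 to 9.02 on the female arrays and from 8.88 to 9.17 on the wild-type castrated arrays. On the knockout castrated arrays it was 8.2, 8.63 and 8.73. The male and female ranges overlapped through knockout male array 1, and the 3 wild-type castrated arrays lay above all 6 male arrays. These levels are a description, since enzymes of an array share its RNA and are not independent.

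**Figure D4:**
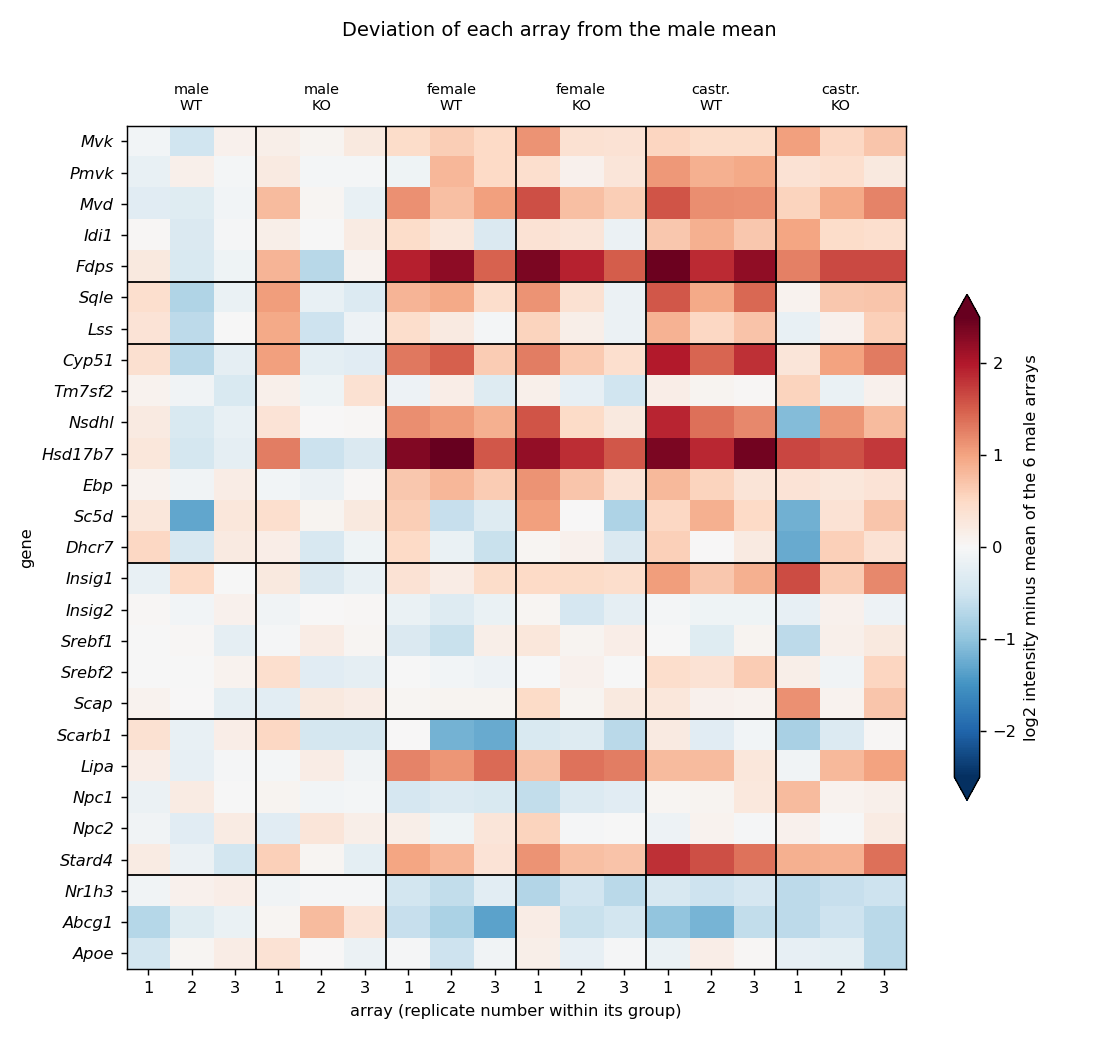
Log2 intensity of the 27 genes on the 18 arrays, each minus the mean of the 6 male arrays. Rows follow the roles of the genes, columns the groups and replicate numbers, red is above and blue below the male mean. The rows of Fdps, Cyp51, Hsd17b7 and Stard4 are red in the female and castrated columns, and Nr1h3 is blue there.

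In the SREBP control genes Insig1 had the largest difference after castration. Between females and males 0 of the 5 genes passed in the limma test (2 at an unadjusted p under 0.05), and between castrated and uncastrated males 2 passed, both higher. Insig1 holds the Scap and SREBP complex in the endoplasmic reticulum and is itself a target of SREBP. Insig1 measured 6.72, 7.41 and 6.89 on the wild-type and 7.15, 6.54 and 6.71 on the knockout male arrays. Female Insig1 values were 7.27, 7.09 and 7.37 in wild type and 7.41, 7.39 and 7.35 in knockout. Castrated males gave Insig1 values of 7.94, 7.58 and 7.79 in wild type and 8.53, 7.53 and 8.1 in knockout. Every castrated array lay above every male array, and above every female array, while the female arrays overlapped the males through wild-type male array 2 and knockout male array 1. Insig1 was 2.02-fold higher in castrated males (log2 difference 1.01, SE 0.17, limma adjusted p = 0.000233). Its other 2 probes gave 0.94 and 0.72, and both passed. In females the difference was 0.41 (SE 0.17, limma adjusted p = 0.092), and between castrated males and females it was 0.60 (SE 0.17, limma adjusted p = 0.0504), just outside the threshold.

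Scap differed by 0.40 (SE 0.14, limma adjusted p = 0.0459) in castrated males. Castrated knockout arrays 1 and 3 were at 10.25 and 9.79, the other 4 castrated arrays between 9.18 and 9.38 and the male arrays between 8.84 and 9.34. The call was lost in 18 of 28 alternatives, and of the single arrays it survived leaving out only wild-type male array 1, knockout male array 2, knockout female array 1 or 2 and castrated knockout array 2. Without castrated knockout array 1 and knockout female array 1 the difference was 0.27, and the second Scap probe gave 0.07. Srebf2, which encodes SREBP-2, differed by 0.33 (SE 0.13, limma adjusted p = 0.0542) in castrated males and by -0.02 (SE 0.13) in females, and neither passed. Srebf1, which encodes the forms that act more on fatty acid genes, differed by -0.08 (SE 0.16) in castrated males and -0.05 (SE 0.16) in females. Insig2, the other Insig protein, differed by -0.08 (SE 0.09) in castrated males and -0.21 (SE 0.09) in females, and its second probe had the opposite sign, at 0.24 and 0.23, none of them passing.

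Of the 5 tested genes of uptake, lysosome and trafficking, 4 passed between females and males, 2 in each direction, and 2 passed between castrated and uncastrated males, both higher. Stard4 is a soluble carrier that moves sterol between membranes and is known as a target of SREBP-2. Stard4 measured 8.07, 7.73 and 7.42 on the wild-type and 8.47, 7.91 and 7.62 on the knockout male arrays. Female Stard4 values were 8.86, 8.7 and 8.22 in wild type and 9.0, 8.62 and 8.58 in knockout. Castrated males gave Stard4 values of 9.7, 9.48 and 9.22 in wild type and 8.76, 8.74 and 9.25 in knockout. The castrated arrays lay above all male arrays, wild-type castrated males highest on average, and only knockout male array 1 reached the female range. Stard4 was 1.73-fold higher in females (0.79, SE 0.17, limma adjusted p = 0.00184) and 2.5-fold higher in castrated males (1.32, SE 0.17, adjusted p = 1.39e-05). Castrated males and females differed in Stard4 by 0.53 (SE 0.17, limma adjusted p = 0.0814).

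Lipa is the lysosomal lipase that frees cholesterol from the esters of lipoproteins. Lipa measured 10.25, 9.87 and 10.06 on the wild-type and 10.04, 10.27 and 10.0 on the knockout male arrays. Female Lipa values were 11.32, 11.19 and 11.5 in wild type and 10.82, 11.43 and 11.37 in knockout. Castrated males gave Lipa values of 10.88, 10.88 and 10.37 in wild type and 9.99, 10.9 and 11.09 in knockout. Every female array lay above every male array, while castrated knockout array 1 lay within the male range and wild-type castrated array 3 just above it. Lipa was 2.28-fold higher in females (1.19, SE 0.16, limma adjusted p = 2.73e-05), and its second probe gave 1.24. In castrated males it was 1.52-fold higher (0.60, SE 0.16, limma adjusted p = 0.00949). Lipa was lower in castrated males than in females (-0.59, SE 0.16, limma adjusted p = 0.0462), a call close to the threshold that was lost in 18 of 28 alternatives. Of the single arrays it survived leaving out only wild-type male array 1 or 2, knockout female array 1 and castrated knockout array 2 or 3.

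Npc1 and Npc2 pass cholesterol out of the lysosome, Npc2 in its lumen and Npc1 in its membrane. Npc1 measured 11.94, 12.29 and 12.06 on the wild-type and 12.15, 12.01 and 12.02 on the knockout male arrays. Female Npc1 values were 11.66, 11.73 and 11.69 in wild type and 11.47, 11.74 and 11.79 in knockout. Castrated males gave Npc1 values of 12.13, 12.15 and 12.35 in wild type and 12.86, 12.16 and 12.21 in knockout. The female arrays lay below all other arrays, and castrated knockout array 1 had the highest value. Npc1 was 1.32-fold lower in females than in males (-0.40, SE 0.11, limma adjusted p = 0.0109) and 1.55-fold higher in castrated males than in females (0.63, SE 0.11, limma adjusted p = 0.00227). Castrated and uncastrated males differed by 0.23 (SE 0.11, limma adjusted p = 0.114). The other 2 kept probes of Npc1 gave -0.47 and 0.24 between females and males, neither passing, and the female call was lost when the probes were averaged and under median scaling. After castration the latter probe did pass (0.61, SE 0.12, limma adjusted p = 0.00146 over all probes), and the former gave 0.19. Castrated males against females gave 0.66 and 0.37 with these 2 probes, neither passing. Npc2 differed by 0.15 (SE 0.14) in females and 0.04 (SE 0.14) in castrated males.

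Scarb1 is the receptor that takes cholesteryl esters from HDL, and its probes disagreed too. Scarb1 measured 11.44, 10.88 and 11.23 on the wild-type and 11.58, 10.63 and 10.63 on the knockout male arrays. Female Scarb1 values were 11.07, 9.89 and 9.81 in wild type and 10.69, 10.75 and 10.4 in knockout. Castrated males gave Scarb1 values of 11.28, 10.79 and 10.99 in wild type and 10.26, 10.72 and 11.1 in knockout. Wild-type female arrays 2 and 3 lay lowest, wild-type female array 1 lay among the males, and the knockout groups overlapped. Scarb1 differed by -0.63 (SE 0.21, limma adjusted p = 0.0416) between females and males, but the second, dimmer probe gave 0.10 (SE 0.47). The call was lost in 13 of 28 alternatives, leaving out wild-type male array 1 or 3, knockout male array 1, wild-type female array 2 or 3, any knockout female array or castrated wild-type array 3 among them. In castrated males the tested probe gave -0.21 (SE 0.21, limma adjusted p = 0.51), while the second gave 1.69 (SE 0.47, adjusted p = 0.0137 over all probes). The estimates of the Scarb1 probes thus had opposite signs in both comparisons. The second probe in females and the tested probe in castrated males could not be told from 0, so opposite directions are not shown.

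Of the 3 tested genes of LXR signalling and efflux, 2 were lower in both comparisons and 0 were higher. Nr1h3 encodes LXR-alpha, which senses oxysterols and switches on exporters. Nr1h3 measured 9.1, 9.3 and 9.36 on the wild-type and 9.1, 9.16 and 9.16 on the knockout male arrays. Female Nr1h3 values were 8.74, 8.59 and 8.94 in wild type and 8.47, 8.72 and 8.53 in knockout. Castrated males gave Nr1h3 values of 8.8, 8.67 and 8.77 in wild type and 8.55, 8.62 and 8.67 in knockout. The 6 male arrays lay above all 12 others. Nr1h3 was 1.44-fold lower in females (-0.53, SE 0.09, limma adjusted p = 0.000297) and 1.43-fold lower in castrated males (-0.52, SE 0.09, adjusted p = 0.000383). Abcg1 exports cholesterol to HDL and is a target of LXR. Abcg1 measured 5.77, 6.18 and 6.33 on the wild-type and 6.53, 7.29 and 6.84 on the knockout male arrays. Female Abcg1 values were 5.92, 5.69 and 5.15 in wild type and 6.68, 5.94 and 6.03 in knockout. Castrated males gave Abcg1 values of 5.51, 5.33 and 5.87 in wild type and 5.83, 5.97 and 5.81 in knockout. Knockout male arrays lay highest on average, and the wild-type males overlapped the female and castrated arrays. Abcg1 was 1.5-fold lower in females (-0.59, SE 0.19, limma adjusted p = 0.0325) and 1.71-fold lower in castrated males (-0.77, SE 0.19, adjusted p = 0.00515). In wild type alone Abcg1 gave -0.51 in females and -0.52 in castrated males, neither passing. In knockout it gave -0.67, which did not pass, and -1.02, which did. Its probe was detected on 14 of the 18 arrays, among them every male array. It was detected on 1 of the 3 wild-type castrated arrays, and on 2 of 3 in wild-type females and in knockout castrated males. The folds are therefore no exact sizes. Without background correction the differences averaged over genotypes were -0.23 and -0.30. The female call was lost in 9 of 27 alternatives, among them median scaling and leaving out wild-type male array 2 or 3, knockout male array 2 or 3, wild-type female array 3 or knockout female array 2 or 3. Apoe, which carries cholesterol in lipoproteins and is made by the adrenal cortex, differed by -0.12 (SE 0.13) in females and -0.18 (SE 0.13) in castrated males.

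Markers of cell types moved between the same groups, where the shares of all genes called higher or lower are those given above. The X-zone is an inner layer of the cortex that male mice lose at puberty and females keep. Both X-zone markers tested, Akr1c18 and Pik3c2g, were undetected on all 6 male arrays, where the mean of the pair ran from 4.44 to 4.74, against 10.72 to 12.62 on the female arrays and 11.04 to 12.26 on the castrated arrays. Of 7 steroidogenic cortex markers, 5 were higher and 1 lower in females (median 0.47) and 6 higher and 1 lower in castrated males (median 0.55), and the array means of the list were 11.64 to 11.83 in males, 11.91 to 12.16 in females and 12.02 to 12.46 in castrated males. Of 6 medulla markers, 5 were lower in castrated males than in males (median -0.82), the same number were lower in castrated males than in females (median -0.70), and 0 passed between females and males by limma (0 at an unadjusted p under 0.05). All 3 tested proliferation markers were higher in females (median 1.08) and 1 of the 3 was higher in castrated males (median 0.59, all 3 at an unadjusted p under 0.05), and the list averaged 5.12 to 5.78 on the male, 5.86 to 7.24 on the female and 5.51 to 6.37 on the castrated arrays. Of 4 endothelium markers, 3 were lower in castrated males than in males (median -0.56), 2 were lower in castrated males than in females (median -0.33), and 0 passed in females by limma (2 at an unadjusted p under 0.05, median -0.14). The endothelium list averaged 8.34 to 8.65 on the male, 8.23 to 8.5 on the female and 7.92 to 8.15 on the castrated arrays. Of 9 macrophage markers, 5 were lower in castrated males (median -0.43) and 0 passed in females (2 at an unadjusted p under 0.05), with a median of -0.21 and all 9 below 0. Fcgr1, a macrophage receptor, was detected on all 6 male and on 0 castrated arrays. The macrophage list averaged 8.28 to 8.59 on the male, 8.2 to 8.36 on the female and 7.91 to 8.38 on the castrated arrays. Of 4 adipose markers, such as Adipoq, 0 passed in females (0 at an unadjusted p under 0.05) and 1 was higher in castrated males, while 2 were higher in castrated males than in females (median 0.83). Of 3 liver markers, such as Ttr, 0 passed in either comparison by limma (0 and 2 at an unadjusted p under 0.05), nor did either of the 2 red blood cell markers (2 and 0) or the 1 kidney marker tested (0 and 0). In whole glands fewer cells of a type and less RNA per cell cannot be told apart, and the part of these cell types in the differences of the sterol genes was not tested.

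Further genes of cholesterol and lipid handling were listed by role and not by their change, although earlier results of these data were known. Of 38 tested of 47 listed, 7 were higher and 2 lower in females, with a median of 0.06. The same rule called 10.7% of all genes higher and 11.1% lower. In castrated males 10 were higher and 3 lower, with a median of 0.11, against 11.9% of all genes higher and 15.8% lower. The smallest p-values in both comparisons belonged to Apoc1, an apolipoprotein, which was higher by 2.70 (SE 0.35, limma adjusted p = 1.45e-05) in females and 2.89 (SE 0.35, adjusted p = 8.08e-06) in castrated males. Lpin1, a phosphatidate phosphatase, was lower by the same test (-0.75, SE 0.16, and -0.93, SE 0.16), as was Me1, the malic enzyme, in females (-0.75, SE 0.14). Higher were Cyb5r3, a reductase that gives electrons to sterol desaturation, in females (0.38, SE 0.07), and Vldlr, a lipoprotein receptor (0.75, SE 0.13), and Lbr, a sterol reductase of the nuclear membrane (0.42, SE 0.09), in castrated males. Genes are named only where their p-values were smallest, so a change is not particular to that comparison. Mean Vldlr in wild type and knockout was 9.09 and 8.99 in females, against 8.55 and 8.34 in males. Mean Me1 was 10.06 and 9.95 in castrated males, against 10.5 and 10.55 in males. Star, which moves cholesterol into mitochondria for steroid synthesis, was the 1 gene of the 38 that passed between castrated males and females (0.62, SE 0.13, limma adjusted p = 0.0125). Among all genes 1.76% were higher and 2.63% lower there, so 1 of 38 is near the share of all genes.

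Within each genotype the differences were estimated from 3 arrays against 3, and fewer genes passed. Between wild-type females and males 8 of 27 passed, 7 higher (5.31% of all genes) and 1 lower (4.82%), and between knockout females and males 5 of 27, 4 higher (5.52%) and 1 lower (4.77%). Between wild-type castrated and uncastrated males 11 of 27 passed, 10 higher (4.61%) and 1 lower (6.1%), and in knockout 6 of 27, 4 higher (7.45%) and 2 lower (10.1%). Between castrated males and females 0 passed in wild type by limma (8 at an unadjusted p under 0.05; 0.135% of all genes were called higher and 0.193% lower) and 1, Npc1, in knockout (0.511% higher, 1.02% lower). Over all genes these 6 comparisons called 1051, 1068, 1111, 1818, 34 and 159 genes. Without castrated knockout array 1 and knockout female array 1 they called 1648, 1357, 1841, 1926, 147 and 88. The 6 counts of the set were then 12, 6, 14, 9, 2 and 0. The wild-type counts turned on single arrays: the female one fell to 4 when array 2 of either the males or the females was left out and to 5 when male array 3 was, and the castrated one was 7 without wild-type male array 2 or 3 or castrated wild-type array 1. Between castrated males and females the wild-type count was 1 without castrated knockout array 1, and the knockout count was 0 without knockout female array 1. The knockout castrated count against males was 10 without knockout female array 1, and under median scaling it was 7, 6 higher and 1 lower.

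Fdps and Hsd17b7, both higher, and Nr1h3, lower, passed in all 4 comparisons with males of the same genotype. Nr1h3 differed by -0.50 and -0.56 between females and males in wild type and knockout, and by -0.51 and -0.53 after castration. Its wild-type calls were each lost in 3 of 28 alternatives. Fdps differed by 1.97 (SE 0.30) and 1.85 (SE 0.30) between females and males in wild type and knockout, and by 2.26 (SE 0.30) and 1.44 (SE 0.30) after castration, where the largest limma adjusted p of the 4 was 0.0031. Hsd17b7 differed by 2.25 (SE 0.35) and 1.74 (SE 0.35), and by 2.35 (SE 0.35) and 1.55 (SE 0.35) after castration, where the largest adjusted p was 0.00598. Cyp51 differed by 1.92 (SE 0.36, limma adjusted p = 0.00167) after castration in wild type and by 0.71 (SE 0.36, adjusted p = 0.189) in knockout. Nsdhl gave 1.62 (SE 0.42, limma adjusted p = 0.0191) and 0.15 (SE 0.42, limma adjusted p = 0.845), and the knockout value was 0.83 (SE 0.31, limma adjusted p = 0.0849) without castrated knockout array 1. Its wild-type call was lost without wild-type male array 2 or 3 or castrated wild-type array 1. Sqle gave 1.48 (SE 0.36, limma adjusted p = 0.0113) in wild type, a call lost without wild-type male array 2 or castrated wild-type array 1, and 0.31 (SE 0.36, limma adjusted p = 0.597) in knockout. The median of the 14 enzymes after castration was 0.95 in wild type and 0.35 in knockout. That difference between genotypes was tested gene by gene as an interaction, and 0 of the 27 genes passed.

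The Ephb6 knockout itself moved no gene of the set past the threshold. In males 0 of 27 passed in the limma test, 1 had an unadjusted p under 0.05, and 0% of all genes passed. In females the same counts were 0 and 1, with 0% of all genes. In castrated males 0 of 27 passed and 8 had an unadjusted p under 0.05, with 0% of all genes passing. Ephb6 itself thus did not pass in any single condition, although its mean was 6.77 in wild-type and 5.30 in knockout females. In castrated males these means were 6.76 and 5.35. A count of 0 within 1 condition therefore does not show that the knockout had no effect on the sterol genes. Over the mean of the 3 conditions 0 of 27 passed and 2 had an unadjusted p under 0.05, and the 0.00964% of all genes that passed is Ephb6 alone. The interactions gave 0 of 27 passing and 0, 6 and 1 at an unadjusted p under 0.05 for females against males, castrated against uncastrated males and castrated males against females, with 0% of all genes passing in each. The shares of all genes given here are at the adjusted threshold. The counts at an unadjusted p have no such share beside them, and no conclusion is drawn from them. None of the alternatives, array weights included, brought a gene of the set past the threshold in these 7 comparisons.

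In castrated males 12 of the 14 enzymes lay below 0 in knockout, and these signs share arrays and are not independent. Their median was -0.54, against 0.01 over all genes, and it was -0.33 without castrated knockout array 1. Nsdhl gave -1.23 (SE 0.42, limma adjusted p = 0.751), and -0.55 (SE 0.31) without that array, on which it was at 5.31. The same pair of values, with and without the array, was -0.88 and -0.60 for Cyp51, -0.83 and -0.63 for Sqle, -0.68 and -0.11 for Sc5d, -0.66 and -0.53 for Fdps and -0.63 and -0.64 for Pmvk. Dhcr7 changed sign, from -0.37 to 0.21, so the order of the enzymes rests on that array. The 95% interval of the Fdps difference was -1.28 to -0.03 and that of Cyp51 -1.63 to -0.13, so that at 3 arrays a group these intervals reach from near no change to more than 1 log2 unit. Castrated knockout array 1, the dim array, was the lowest of its group for 8 of the 14 enzymes and the highest for 4. In males the enzyme median was 0.25 with 12 of 14 above 0, and it was -0.06 without knockout male array 1 and 0.44 without knockout male array 2. In females the median was -0.01 with 7 of 14 above 0.

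The difference of the knockout effect between castrated and uncastrated males was below 0 for 14 of 14 enzymes. Enzymes of an array share its RNA, so the 14 signs are not independent. The median was 0 over all genes and -0.77 over the enzymes. The enzyme median was -0.39 without knockout male array 1 and -0.62 without castrated knockout array 1 and knockout female array 1. Nsdhl gave -1.46 (SE 0.60), Cyp51 -1.21 (SE 0.51) and Sqle -1.17 (SE 0.50), each with a limma adjusted p of 0.966, and without castrated knockout array 1 alone they gave -0.79, -0.93 and -0.97. Dhcr7 was above 0 without that array (0.44), and Mvk without wild-type male array 2 (0.13). Between castrated males and females the median difference of the knockout effect was -0.45, and it was -0.01 without those 2 arrays.

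Abcg1, whose values on each array are given above, had the smallest unadjusted p of the set over the mean of the 3 conditions. Its differences between knockout and wild type were 0.79 (SE 0.27) in males, 0.63 (SE 0.27) in females and 0.30 (SE 0.27) in castrated males. The female difference was 0.40 without knockout female array 1. The arrays of the genotypes overlapped in castrated males and not in males or females. In females the highest wild-type value was 5.92 and the lowest knockout value 5.94. The probe was detected on 2 of the 3 wild-type female arrays. Over the 3 conditions the difference was 0.57 (SE 0.15, 95% interval 0.25 to 0.90), with an unadjusted p of 0.00154 and a limma adjusted p of 0.979, so that it did not pass. Scap differed by 0.27 (SE 0.12, limma adjusted p = 0.979). Without castrated knockout array 1 the Scap difference was 0.18 (SE 0.1), and without that array and knockout female array 1 it was 0.15. The other 25 genes had intervals that included 0.

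**Figure D5:**
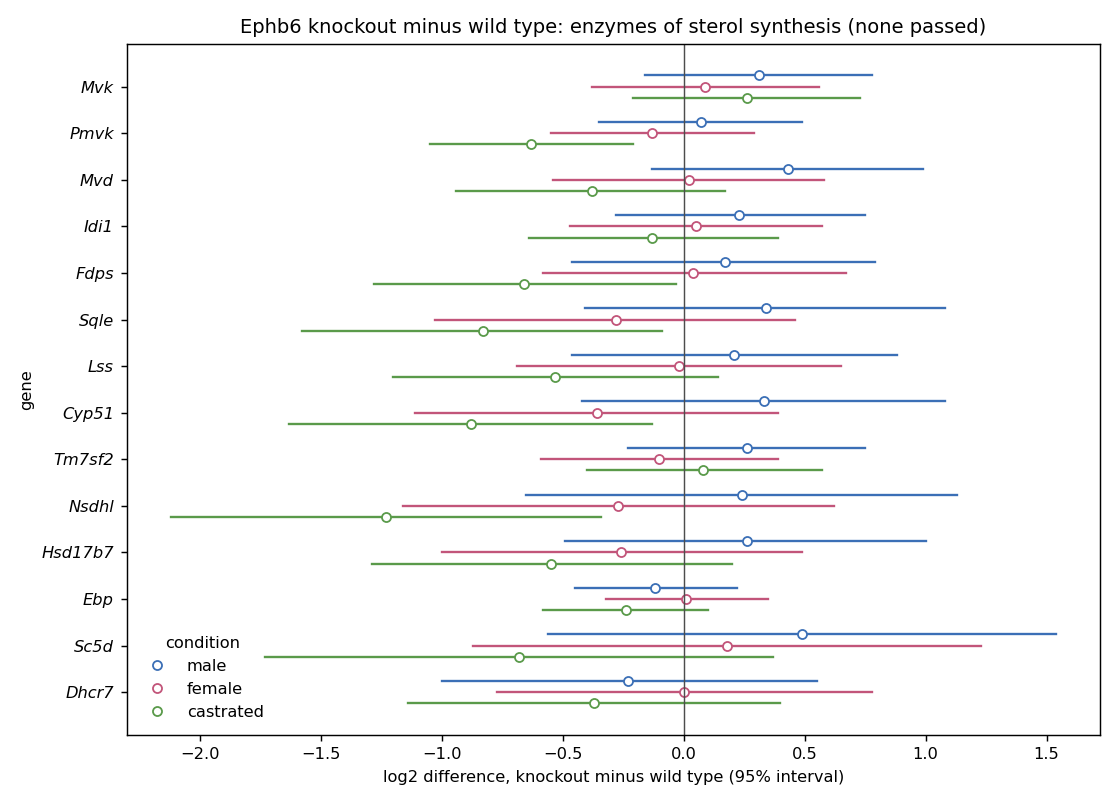
Log2 differences between knockout and wild type for the 14 enzymes in males (blue), females (red) and castrated males (green), with 95% intervals. All points are open, since none passed. Green points lie left of 0 for 12 of the 14 enzymes and blue points right of 0 for 12.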

How the data were processed

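Total RNA of 18 adrenal samples was hybridised to Illumina mouse bead arrays. The deposited files hold 45281 probes, with a bead signal intensity per array and, per the file headers, its detection p-value, and GenomeStudio is named in the submitters' processing notes. The authors also deposited normalized intensities, used here only as an alternative. Symbols came from the platform annotation, and 34885 probes had 1 gene symbol, 18 had several and 10378 had none.

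The intensities were background-corrected with their detection p-values, quantile-normalized with an offset of 16 and put on a log2 scale with neqc in limma 3.58.1 under R 4.3.3. To be kept, a probe needed 3 or more arrays where its detection p was below 0.01 (18158 probes), and the brightest kept probe stood for each of 10375 genes. One linear model of 6 groups was fitted to all 18 arrays (12 residual degrees of freedom), with an intensity trend in eBayes. P-values were adjusted by the Benjamini-Hochberg method over all genes within each of 16 comparisons, called at an adjusted p under 0.05. The median SE was 0.145 for a difference averaged over genotypes and 0.206 for one between 2 groups. The number of arrays limits the precision, and no test compares one probe's level with another's. The fit was tested on simulated data.

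The members, the marker lists and the rules were chosen with earlier results of these data known. All 33 genes of the list are named. Values on every array are given for the 15 that passed with the smallest p in a comparison averaged over genotypes, and for genes whose probes disagree in sign on a difference that passed. Of other pathway genes, up to 4 that passed with the smallest p are named per comparison. Where all arrays of a group lacked detection, a fold is given as a lower bound. The alternatives were no background correction, median scaling, the authors' values, both other filters on dim probes, the mean of probes, array weights, no intensity trend, the replicate number as a block, and leaving out single arrays or the 2 arrays of lowest weight.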

Additional observations from a re-analysis of the deposited data

How the results depend on the processing

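No call of a gene of the set turned its direction under the alternatives run. Averaged over both genotypes, Mvd, Fdps, Cyp51, Hsd17b7, Ebp, Lipa, Stard4 and Nr1h3 passed between females and males under every alternative in which they were tested, and Mvk missed only without a filter on dim probes (adjusted p = 0.0505 by limma). Between castrated and uncastrated males, again averaged over genotypes, all genes that passed did so under every alternative that tested them, except Nsdhl and Scap. Within a genotype more calls were lost. After castration in wild type Insig1 lost its call in 15 of 28 alternatives, Idi1 in 5 of 27, Nsdhl in 3 of 27, Nr1h3 in 3 of 28 and Sqle in 2 of 28, and in knockout Stard4 lost it in 3 of 28 and Abcg1 in 2 of 27. Between wild-type females and males Cyp51 and Stard4 lost theirs in 4 of 28, Nr1h3 in 3 and Ebp in 2, and Npc1 lost its call between castrated and female knockouts in 2 of 28. Leaving out single arrays kept 1015 calls of single genes and lost 101. With array weights the counts rose to 9 between castrated males and females and to 16 and 10 between females and males in wild type and knockout. They rose to 12 between castrated and uncastrated knockout males and to 3 between castrated males and females in wild type. Calls over all genes rose too, in the same order from 456, 1051, 1068, 1818 and 34 to 1399, 2257, 2048, 2783 and 334. The count of castrated males against females was 1 without a filter on dim probes and 1 without an intensity trend. Without castrated knockout array 1 and knockout female array 1 it was 2 in wild type and 0 in knockout. Leaving out 1 array at a time gave 1 to 3 for that count averaged over genotypes, 0 to 1 in wild type and 0 to 1 in knockout. It gave 4 to 12 for females against males in wild type, 7 to 14 for castrated against uncastrated males in wild type and 4 to 10 in knockout. Under median scaling the passing genes split into 9 higher and 1 lower in females (9 and 4 in the main setting), and 2 higher and 0 lower in castrated males against females (1 and 1). The causes of these changes were not tested.

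Over all genes tested the replicate numbers showed no clear pairing of the samples. The correlation of deviations from the group means over 45 pairs of same-numbered arrays ran from -0.232 to 0.233, with 6 over 0.1. By this measure 4 of 18 arrays were closest to their own number. Among the 14 enzymes, array 1 had the highest mean deviation in wild-type and knockout males (0.28 and 0.42) and females (0.15 and 0.45). The same held in wild-type castrated males (0.17), while castrated knockout array 1 was lowest of its group (-0.32). Whether the numbers mark a shared order or batch is not given in the labels. With the replicate number as a block 12 genes passed between females and males, 15 between castrated and uncastrated males and 2 between castrated males and females. Within genotypes these counts were 9 and 6, 12 and 6, and 0 and 1 for wild type and knockout, and 0 passed for the knockout itself. Signal over background limits Idi1, Mvk, Nsdhl, Sc5d and Abcg1, which were not detected on every array.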
